A study of Mus musculus with 36 samples.

Results

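The transcripts of the class II and class IV histone deacetylases (HDACs) and of the MEF2 transcription factors were followed across 3 brain regions and 3 HDAC inhibitors in mice. The list held 10 genes, namely Hdac4, Hdac5, Hdac6, Hdac7, Hdac9, Hdac10, Hdac11, Mef2a, Mef2c and Mef2d. Every probe of the array table whose gene symbol was a member was taken, without regard to capitals. This gave 16 probes, of 45281 in the table, for 9 of the 10 genes. Mef2c had 5 probes, Hdac5 had 3, Hdac9 had 2, and Hdac4, Hdac6, Hdac7, Hdac10, Hdac11 and Mef2d had 1 each. No probe carried the symbol or a RefSeq synonym of Mef2a, so this gene was not measured here.

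The animals were adult male C57BL/6 mice that received a daily intraperitoneal injection for 10 days, and tissue was taken 1 h after the last dose. The 4 treatments were vehicle (saline, PEG-400 and DMSO), Cpd-60 at 45 mg/kg, SAHA at 25 mg/kg and CI-994 at 10 mg/kg. SAHA and CI-994 were injected in a smaller volume than vehicle and Cpd-60. Each array held RNA pooled from 2 mice, each treatment had 3 pools, and the hippocampus (HIP), the prefrontal cortex (PFC) and the nucleus accumbens (NAc) of a pool came from the same mice, which gave 36 arrays in 12 groups. Cpd-60 and CI-994 are benzamide-type inhibitors directed at class I HDACs, and SAHA is a hydroxamate that also acts on HDAC6. Doses differed between the drugs, so their values stand side by side and were not tested against each other.

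Class IIa HDACs (HDAC4, HDAC5, HDAC7 and HDAC9) bind MEF2 proteins on DNA and hold MEF2 target genes down. Calcium-dependent and related kinases phosphorylate them, 14-3-3 proteins bind the phosphorylated form, and the HDAC then leaves the nucleus. They have little deacetylase activity of their own and act through HDAC3 in the NCoR corepressor complex. HDAC6 and HDAC10 form class IIb, of which HDAC6 deacetylates tubulin in the cytoplasm and HDAC10 deacetylates polyamines. HDAC11 is the sole class IV member. In neurons MEF2 factors respond to activity and govern genes that set synapse number, and MEF2C is the family member known for high expression in cortical excitatory neurons.

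Values are log2 intensities after quantile normalization of the 36 arrays together, without background subtraction, so differences of dim probes were compressed. A probe was called detected on an array at a detection p of at most 0.01. Between 31.9% and 43.3% of probes were detected on an array, the median raw intensity ran from 82.2 to 108.3, and arrays of a group correlated at r = 0.970 to 0.994. The SAHA HIP arrays were dim, with a 95th percentile of raw intensity of 437.7 to 665.2 against 686.4 to 839.6 on the vehicle HIP arrays. The Cpd-60 NAc group held both the lowest and the highest value of the series, at 349.9 and 1079.7, against 480.5 to 861.2 on the vehicle NAc arrays. The labels disagree on Cpd-60 pool 2, which the title and source name as mice 3 and 4 and the description as mice 1 and 2. Marker genes followed the labelled regions. The summed intensity of 6 measured striatal neuron markers was 14990 to 16610 in vehicle NAc, 1211 to 1485 in PFC and 955.1 to 1103 in HIP. That of 6 hippocampal neuron markers was 3585 to 4411 in HIP against 661.7 to 799.3 in NAc and 691.1 to 711 in PFC, with Tdo2 not detected in any of the 3. Snap25, a general neuron marker, was not detected in vehicle PFC or HIP, and the 4 measured neuron markers summed to 12120 to 20060 over the 3 regions. Choroid plexus markers summed to 2928 to 11060 in vehicle HIP and at most 1029 elsewhere. Each BeadChip held arrays of a single region, and each region was spread over 2 BeadChips. In each region vehicle and Cpd-60 had 2 arrays on the first BeadChip and 1 on the second, and SAHA and CI-994 had the reverse. The SAHA and CI-994 differences, fitted without a BeadChip term, can therefore hold part of a difference between BeadChips. Every regional difference is also a difference between BeadChips, and region and BeadChip cannot be told apart here.

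The Mef2c probes could not be placed on the gene, because probe sequences and positions were not used here. RefSeq (GRCm38.p6) gives Mef2c 3 transcription starts in the promoter table. The 100 bases before each start are shown because Mef2c is the member with the largest regional difference and its transcripts can arise from any of these starts. Start 1 follows chr13:83503934-83504033, start 2 follows chr13:83523556-83523655 and start 3 follows chr13:83573507-83573606, all on the plus strand. Hdac5 (chr11:102230173-102230272, minus strand) is shown beside them because its promoter holds a match to the MEF2 consensus site, given in capitals.
Mef2c start 1: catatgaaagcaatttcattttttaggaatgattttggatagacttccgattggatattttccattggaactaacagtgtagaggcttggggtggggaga
Mef2c start 2: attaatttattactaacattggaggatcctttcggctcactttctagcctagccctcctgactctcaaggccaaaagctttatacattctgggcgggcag
Mef2c start 3: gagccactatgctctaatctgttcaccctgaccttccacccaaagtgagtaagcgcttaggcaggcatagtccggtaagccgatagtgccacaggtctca
Hdac5: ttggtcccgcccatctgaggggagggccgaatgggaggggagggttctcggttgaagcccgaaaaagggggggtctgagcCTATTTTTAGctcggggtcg
The MEF2 consensus was searched on both strands of the windows of 250 bases before to 50 after each start. A match was present in 3.19% of all 32851 windows and in 2 of the 15 windows of the 9 members in the table, those of Hdac5 and Mef2a. These 9 include Mef2a, which had no probe, and Hdac10 had no entry. The Hdac5 match begins 20 bases before the start. The Mef2c windows held none, which says only that these letters are not in these windows.

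Mef2c differed most between regions. Under vehicle the leading probe, the brightest of the gene (ILMN_2732465), read 11.99, 11.91 and 12.14 in the 3 PFC pools, 10.27, 10.40 and 10.15 in NAc, and 9.83, 9.99 and 9.89 in HIP. All PFC pools stood above all NAc pools, and all NAc pools above all HIP pools. The level in NAc was 1.74 log2 units lower than in PFC (difference −1.74, SE 0.09, limma adjusted p = 1.71e-05), a 3.34-fold difference. In HIP it was 4.32-fold lower than in PFC (−2.11, SE 0.09, adjusted p = 1.75e-05). The step from NAc to HIP was smaller (−0.37, SE 0.09, adjusted p = 0.0288). It kept its sign but lost the threshold without vehicle pool 1 (adjusted p = 0.266) or pool 2 (adjusted p = 0.163), and was −0.10 (adjusted p = 0.819) with arrays scaled to a common median. Because these are bulk tissues, fewer cells of a type and less RNA per cell cannot be told apart.

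**Figure D1:**
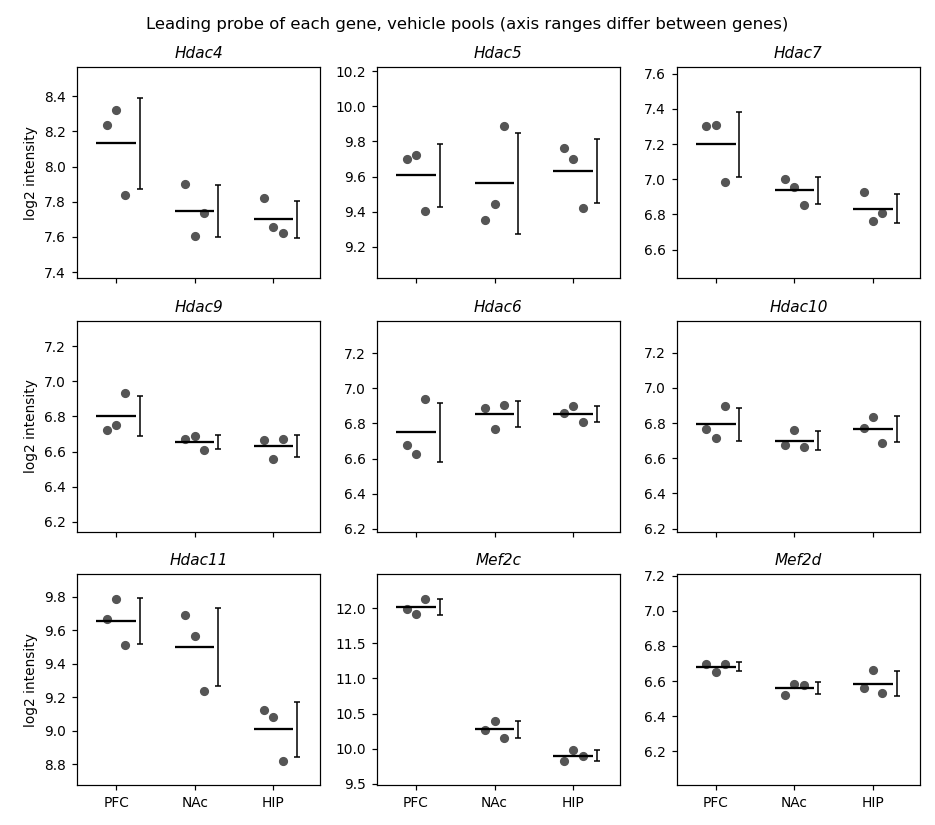
Log2 intensity of the leading probe of each gene on the 9 vehicle arrays, by region. Points are pools, horizontal lines are means and bars are SD over 3 pools. Mef2c falls from about 12 in PFC to about 10 in NAc and HIP, Hdac4, Hdac7 and Hdac11 sit lowest in HIP, and Hdac6, Hdac9, Hdac10 and Mef2d stay near the background level.

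A second bright Mef2c probe (ILMN_2887992) gave the same order. It read 11.59, 11.32 and 11.30 in vehicle PFC, 9.34, 9.40 and 9.36 in NAc, and 9.03, 9.19 and 8.89 in HIP. Its difference from PFC was −2.04 in NAc (SE 0.09, adjusted p = 8.28e-06) and −2.37 in HIP (SE 0.09, adjusted p = 1.15e-05). The dimmer probes ILMN_1214950 and ILMN_1220270 had the same direction with smaller sizes, at −0.85 and −0.75 in NAc and −1.08 and −0.86 in HIP, with adjusted p of 0.00529 or less. These 4 probes correlated at r = 0.952 to 0.982 over the 36 arrays. The fifth, ILMN_2520812, was not detected on any array and correlated with the others at r = 0.214 to 0.335.

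The regional step was present under every treatment. The 4 treatments of a region share its 2 BeadChips, so this does not separate region from BeadChip. For the leading Mef2c probe the NAc minus PFC difference was −2.05 on the Cpd-60 arrays, −1.73 on the SAHA arrays and −2.02 on the CI-994 arrays. The HIP minus PFC difference was −2.30, −2.00 and −2.25 in the same order. All 6 had an adjusted p of 0.00088 or less, where 7.39%, 6.76% and 8.14% of all tested probes were lower in NAc and 9.17%, 9.06% and 6.01% lower in HIP. The HIP minus NAc difference missed the threshold on the Cpd-60, SAHA and CI-994 arrays, at −0.26 (adjusted p = 0.249), −0.26 (adjusted p = 0.108) and −0.23 (adjusted p = 0.412), where 6.08%, 5.17% and 4.34% of probes were lower.

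**Figure D2:**
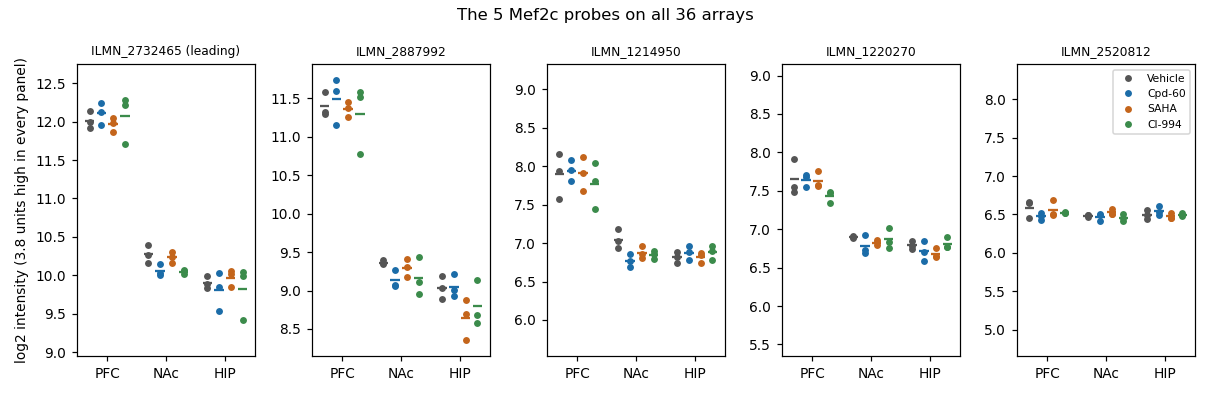
Log2 intensity of each Mef2c probe on all 36 arrays, by region and treatment. Points are pools and short lines are group means, with 3.8 log2 units on the axis of every panel. The 4 detected probes are highest in PFC under all 4 treatments, and ILMN_2520812 is flat at about 6.5.

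Cortical excitatory neuron markers were lower in NAc than in PFC, as Mef2c was, but in HIP their sum overlapped that of PFC. The summed intensity of 4 cortical excitatory neuron markers (Slc17a7, Neurod2, Tbr1 and Neurod6) was 3528 to 4705 in vehicle PFC, 521.4 to 647.8 in NAc and 3025 to 4031 in HIP. Neurod6 was not detected in any of them. Of the 3 tested, Slc17a7, Neurod2 and Tbr1 were all lower in NAc than in PFC (−3.41, −2.67 and −2.33). In HIP Slc17a7 (−0.50) and Tbr1 (−1.58) were lower than in PFC and Neurod2 was higher (0.72), each with an adjusted p of 0.0119 or less. The part of cell composition in the Mef2c differences was not tested. Over the 12 group means, the genes whose leading probe followed Mef2c most closely among 18888 others were Igfbp6 (r = 0.993), Tagln3 (r = 0.992), Hs3st2 (r = 0.992), E2f1 (r = 0.99) and C130074G19Rik (r = 0.99). These points share pools and fall mostly into PFC and not PFC, so the coefficients describe the regional step.

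Of the class IIa HDACs, by leading probe, Hdac4 was called lower in NAc and HIP than in PFC, and Hdac7 in HIP. Hdac4 read 8.23, 8.32 and 7.84 in vehicle PFC, 7.90, 7.60 and 7.74 in NAc, and 7.82, 7.66 and 7.62 in HIP. PFC pool 3 overlapped the NAc pools and lay just above the highest HIP pool. The difference from PFC was −0.39 in NAc (SE 0.11, adjusted p = 0.0437) and −0.43 in HIP (SE 0.11, adjusted p = 0.0243), or 1.31-fold and 1.35-fold lower. Neither passed without vehicle pool 1 (adjusted p = 0.218 and 0.181) or pool 2 (−0.22 and −0.31, adjusted p = 0.295 and 0.155). Of 12 alternatives run, the call held in 4 for NAc and in 7 for HIP. Among the drug-treated arrays Hdac4 was also lower in both regions, by −0.44 and −0.44 under Cpd-60 and −0.65 and −0.79 under SAHA with adjusted p of 0.0411 or less, and by −0.50 and −0.52 under CI-994 (adjusted p = 0.111 and 0.112).

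Hdac7, which is best known from endothelium and thymocytes, read 7.30, 7.31 and 6.99 in vehicle PFC, 7.00, 6.96 and 6.85 in NAc, and 6.93, 6.76 and 6.81 in HIP. All HIP pools were below all PFC pools, and the NAc pools overlapped both. It was 0.37 log2 units lower in HIP than in PFC (−0.37, SE 0.08, adjusted p = 0.0124), and NAc fell just short of the threshold (−0.26, SE 0.08, adjusted p = 0.0532). The HIP call was lost without vehicle pool 1 (adjusted p = 0.133) or pool 2 (adjusted p = 0.175). The summed intensity of 5 endothelial markers was 1177 to 1254 in PFC, 1057 to 1212 in NAc and 1089 to 1138 in HIP, and its part in the Hdac7 values was not tested.

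The 3 Hdac5 probes disagreed. HDAC5 is the class IIa member studied most in NAc responses to drugs and stress. The leading probe (ILMN_3112922) read 9.70, 9.72 and 9.40 in vehicle PFC, 9.35, 9.44 and 9.89 in NAc, and 9.76, 9.70 and 9.42 in HIP, with all regions overlapping. Its differences from PFC were −0.05 in NAc (95% interval −0.43 to 0.34) and 0.02 in HIP (−0.36 to 0.41). ILMN_2659160 read 9.43, 9.31 and 8.88 in PFC, 9.02, 8.92 and 8.75 in NAc, and 8.89, 8.75 and 8.65 in HIP, and was lower in NAc (−0.31, SE 0.08, adjusted p = 0.0307) and HIP (−0.44, SE 0.08, adjusted p = 0.00664), with PFC pool 3 inside the range of both. ILMN_1213290 was lower in HIP (−0.46, SE 0.08, adjusted p = 0.00504) and missed the threshold in NAc (−0.25, SE 0.08, adjusted p = 0.0599). Over the 36 arrays these latter probes correlated with each other at r = 0.765, and with the leading probe at r = 0.406 and r = 0.25. Which transcripts each probe reads was not tested.

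**Figure D3:**
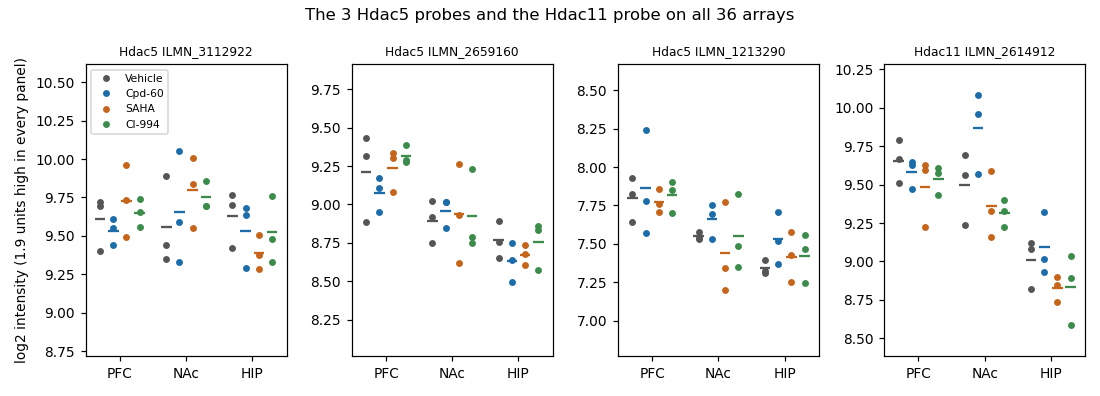
Log2 intensity of the 3 Hdac5 probes and the Hdac11 probe on all 36 arrays, by region and treatment. Points are pools and short lines are group means, with 1.9 log2 units on the axis of every panel. ILMN_3112922 overlaps between regions under vehicle, the other Hdac5 probes and Hdac11 are lowest in HIP, and Hdac11 in NAc is highest under Cpd-60.

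Hdac9 was close to background. Its brighter probe (ILMN_2590403) was detected on 8 of 36 arrays, all from PFC, where the vehicle pools read 6.72, 6.75 and 6.93. The NAc pools read 6.67, 6.69 and 6.61 and the HIP pools 6.66, 6.56 and 6.67, none of them detected. All PFC pools lay above all others, no fold is given, and the differences from PFC did not pass the threshold (adjusted p = 0.225 and 0.14). The second probe (ILMN_2644302) was detected on 1 array.

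Hdac11 was lowest in HIP. It read 9.66, 9.79 and 9.51 in vehicle PFC, 9.69, 9.56 and 9.24 in NAc, and 9.12, 9.08 and 8.82 in HIP. PFC and NAc overlapped, and every HIP pool was below every pool of both. HIP was 1.57-fold lower than PFC (−0.65, SE 0.07, adjusted p = 0.00105) and 1.40-fold lower than NAc (−0.49, SE 0.07, adjusted p = 0.00351). NAc minus PFC was −0.16 (SE 0.07, adjusted p = 0.186). HIP was lower than PFC under Cpd-60 (−0.49), SAHA (−0.65) and CI-994 (−0.70) as well, with adjusted p of 0.0207 or less. Without vehicle pool 2 the adjusted p was 0.0549 against PFC and 0.088 against NAc, with the differences at −0.62 and −0.49. HDAC11 is known from oligodendrocytes as well as neurons. The summed intensity of 4 oligodendrocyte markers (Mbp, Mog, Mag and Cldn11) was 7252 to 8358 in PFC, 11270 to 14750 in NAc and 16210 to 18730 in HIP. That of the 4 measured neuron markers was 19150 to 20060 in PFC, 12120 to 15970 in NAc and 13010 to 14530 in HIP. The part of these markers in the Hdac11 values was not tested.

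The class IIb genes and Mef2d showed no regional call. Hdac6 read 6.68, 6.63 and 6.94 in vehicle PFC, where 1 of 3 pools was detected, 6.89, 6.77 and 6.90 in NAc and 6.86, 6.90 and 6.81 in HIP, where all were. Its differences from PFC were 0.11 (95% interval −0.09 to 0.30) and 0.10 (−0.09 to 0.30). Hdac10 read between 6.67 and 6.90 on the 9 vehicle arrays, with overlapping regions. Mef2d was detected on 3 of 36 arrays, none of them vehicle, and read 6.52 to 6.70 under vehicle.

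Counted by leading probe, 2 of 9 measured genes were lower in NAc than in PFC (Hdac4 and Mef2c), where 10.3% of all 22606 tested probes were lower at this threshold. In HIP 4 of 9 were lower than in PFC (Hdac4, Hdac7, Hdac11 and Mef2c), against 12% of probes. Against NAc, 2 of 9 were lower in HIP (Hdac11 and Mef2c), against 8.47% of probes. No member gene was higher in NAc or HIP than in PFC, where 9.01% and 12.2% of probes were, nor in HIP than in NAc, where 7.69% were. When arrays were scaled to a common median, only the Mef2c calls against PFC remained, at −1.76 and −1.86 (adjusted p = 0.00942 and 0.0114). The signs of the Hdac4, Hdac7 and Hdac11 differences against PFC did not change under that scaling.

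Few drug differences among these genes passed a test. By limma 0 probes of the whole table (0%) passed an adjusted p of 0.05 in each of the 9 comparisons of a drug with vehicle, while between 1.99% and 9.37% had an unadjusted p under 0.05. Members were therefore read at the study's thresholds, an unadjusted p under 0.05 and at least a 1.2-fold change, but by limma's test whereas the methods name an analysis of variance followed by Tukey's post hoc test. By leading probe 1 member, of 8 tested, passed in 1 of the 9 comparisons, Hdac11 under Cpd-60 in NAc, where 1.78% of all 23242 tested probes passed, and it did not pass by the methods' own test (unadjusted p = 0.218 after Tukey's correction over the treatments). None of 9 tested members passed in PFC under Cpd-60, SAHA or CI-994, where 1.11%, 0.217% and 0.654% of probes did. None of 8 passed in NAc under SAHA or CI-994 (0.546% and 0.383% of probes), and none of 7 in HIP under Cpd-60, SAHA or CI-994 (1.53%, 3.17% and 0.67%). An F test over the 4 treatments had an unadjusted p under 0.05 for 2 members in NAc, Hdac11 (unadjusted p = 0.0195) and Mef2c (unadjusted p = 0.0189), against 2.68% of probes, and for none in PFC or HIP (4.78% and 9.19% of probes).

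**Figure D4:**
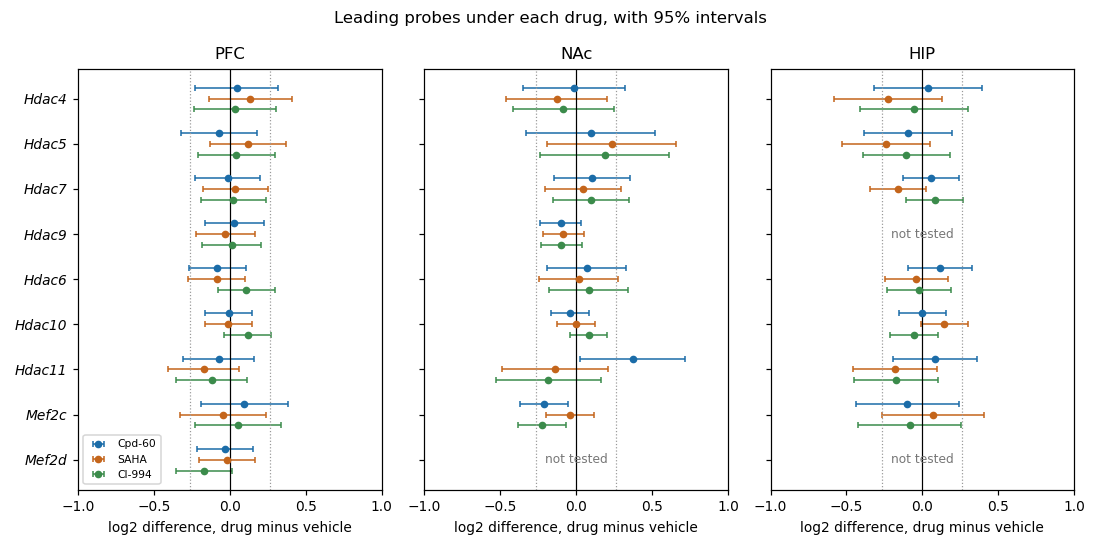
Log2 difference, drug minus vehicle, of the leading probe of each gene in PFC, NAc and HIP, with 95% intervals from the limma fit. Colours are drugs, the solid line is 0 and dotted lines mark 1.2-fold. The interval of Hdac11 under Cpd-60 and those of Mef2c under Cpd-60 and CI-994, all in NAc, lie on one side of 0, and the others include it.

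In NAc, Hdac11 read 9.69, 9.56 and 9.24 under vehicle and 10.08, 9.96 and 9.57 under Cpd-60. The lowest Cpd-60 pool lay within the vehicle range. The difference was 0.37 (SE 0.16, unadjusted p = 0.0381, adjusted p = 0.999), or 1.29-fold. Within the first BeadChip it was 0.39 and within the second 0.33. In pool order, the 95th percentile of raw intensity was 480.5, 575.3 and 861.2 on the vehicle arrays and 349.9, 548.1 and 1079.7 on the Cpd-60 arrays. In both groups Hdac11 fell as this percentile rose, and the part of array brightness in the Hdac11 value was not tested. The SAHA pools read 9.59, 9.16 and 9.33 and the CI-994 pools 9.40, 9.22 and 9.33, with differences of −0.14 (95% interval −0.49 to 0.21) and −0.18 (−0.53 to 0.17). The Cpd-60 call was lost without vehicle pool 2 (0.40, unadjusted p = 0.0541) or pool 3 (0.24, unadjusted p = 0.158), and without Cpd-60 pool 1 (0.27, unadjusted p = 0.147) or pool 2 (0.33, unadjusted p = 0.103), the pool whose labels disagree. It was also lost with neqc background correction (0.41, unadjusted p = 0.0546), with arrays scaled to a common median (0.36, unadjusted p = 0.204) and with the CI-994 arrays left out (0.37, unadjusted p = 0.0587). With the pool number as a block the unadjusted p = 0.00902, and a BeadChip block gave an unadjusted p = 0.000951. In PFC and HIP the Cpd-60 difference was −0.07 (−0.31 to 0.16) and 0.08 (−0.19 to 0.36). The test of whether it differed between regions gave an unadjusted p = 0.0995. Oligodendrocyte markers in NAc summed to 11270 to 14750 under vehicle and 11960 to 15430 under Cpd-60, and 4 of 4 were detected in both. Of 5 astrocyte markers 2 passed the rule as higher under Cpd-60, Gfap (0.77) and Gja1 (0.30), with sums of 7990 to 9350 against 7350 to 8844 under vehicle. Of 5 microglia markers 1 passed as lower, Cx3cr1 (−0.46), with sums of 867.5 to 1107 against 1085 to 1150. The part of these markers in the Hdac11 value was not tested.

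Mef2c was lower in NAc under Cpd-60 and CI-994 by less than the 1.2-fold asked. The leading probe read 10.27, 10.40 and 10.15 under vehicle, 10.01, 10.03 and 10.15 under Cpd-60, and 10.07, 10.06 and 10.02 under CI-994. All pools of both drugs were below all vehicle pools, though Cpd-60 pool 3 and vehicle pool 3 stood within 0.01 of each other. Groups did not overlap for 9.38% and 7.61% of all tested probes in these comparisons. The difference was −0.21 under Cpd-60 (SE 0.07, unadjusted p = 0.0136) and −0.23 under CI-994 (SE 0.07, unadjusted p = 0.00987), both with an adjusted p of at least 0.999. By the methods' own test, unlike Hdac11, both stayed under 0.05 (unadjusted p = 0.0482 and 0.0366 after Tukey's correction over the treatments). With the mean of all probes they were −0.21 (limma unadjusted p = 0.00273) and −0.16 (limma unadjusted p = 0.0120). The paper lists Mef2c as lower in NAc under Cpd-60 at its thresholds, from its own normalized values. The SAHA pools read 10.24, 10.30 and 10.16, a difference of −0.04 (95% interval −0.20 to 0.12). Both comparisons share the vehicle pools, and without vehicle pool 3 both passed the rule, at −0.27 (unadjusted p = 0.00378) and −0.29 (unadjusted p = 0.00284). Without vehicle pool 2 they were −0.15 (unadjusted p = 0.0608) and −0.16 (unadjusted p = 0.0448). With arrays scaled to a common median the differences were −0.22 (unadjusted p = 0.539) and −0.0040 (unadjusted p = 0.991), and with neqc −0.23 (unadjusted p = 0.0939) and −0.24 (unadjusted p = 0.0775), so neither had an unadjusted p under 0.05 under these scalings.

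The other detected Mef2c probes in NAc had the same sign under Cpd-60 and CI-994. Probe ILMN_1214950 read 7.03, 7.18 and 6.93 under vehicle and 6.76, 6.86 and 6.69 under Cpd-60, and it passed the rule there (−0.27, SE 0.08, unadjusted p = 0.0048, adjusted p = 0.942). Under CI-994 it was −0.20 (unadjusted p = 0.0274) and under SAHA −0.17 (unadjusted p = 0.0496), both under 1.2-fold. ILMN_2887992 was −0.23 and −0.20 under Cpd-60 and CI-994, and ILMN_1220270 was −0.11 and −0.03, with unadjusted p of 0.0717 or more. Within BeadChips the leading probe differed by −0.32 and −0.01 under Cpd-60 and by −0.27 and −0.12 under CI-994. Cortical excitatory neuron markers in NAc summed to 521.4 to 647.8 under vehicle, 417.7 to 586.9 under Cpd-60, 435.9 to 486 under SAHA and 382.9 to 724.9 under CI-994. Oligodendrocyte markers summed to 10240 to 11240 under CI-994 against 11270 to 14750 under vehicle, without overlap, and 1 of 4, Mog, passed the rule as lower (−0.45). The astrocyte and microglia markers that passed under Cpd-60 are those given with Hdac11. The part of these markers in the Mef2c values was not tested. The test of a difference between regions gave an unadjusted p = 0.29 for Cpd-60 and an unadjusted p = 0.362 for CI-994, for the leading probe. In PFC the leading probe differed by 0.10 under Cpd-60, −0.05 under SAHA and 0.06 under CI-994. Under CI-994 the other detected probes in PFC had the opposite sign, at −0.11 (ILMN_2887992), −0.13 (ILMN_1214950) and −0.22 (ILMN_1220270, limma unadjusted p = 0.0589). The ILMN_1220270 pools did not overlap vehicle there, as for 10.7% of all tested probes.

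In HIP under SAHA the 2 bright Mef2c probes disagreed as well. ILMN_2887992 read 9.03, 9.19 and 8.89 under vehicle and 8.87, 8.70 and 8.35 under SAHA, with no overlap, and passed the rule (−0.40, SE 0.16, unadjusted p = 0.0257, adjusted p = 0.515). Groups did not overlap for 19.3% of probes in this comparison. The leading probe read 9.85, 10.01 and 10.05 under SAHA against 9.83, 9.99 and 9.89 under vehicle (0.07, 95% interval −0.27 to 0.41). The SAHA HIP arrays are those that were dim, and the values there turned on the scaling. With arrays scaled to a common median, the median of all 23275 tested probes was −0.189 in this comparison, against −0.00811 after quantile normalization. Under that scaling Hdac4 (−0.57), Hdac5 (−0.81), Hdac11 (−0.73) and the leading Mef2c probe (−0.52) passed the rule, and Mef2c changed sign. Because the SAHA HIP arrays differed from vehicle in their 95th percentile, that median does not give the shift of bright probes. The share of all probes that passed under this scaling was not counted. With the background subtracted by normexp (neqc), Hdac7 (−0.50, unadjusted p = 0.0405) and Hdac10 (0.43, unadjusted p = 0.0428) passed instead. The share of all probes that passed with neqc was not counted either, so these calls cannot be set against it. Of 5 astrocyte markers 1 passed as higher in this comparison, Slc1a3 (0.33), and 1 as lower, Gfap (−0.81), and they summed to 10360 to 10910 under SAHA against 9791 to 10320 under vehicle. Of 4 oligodendrocyte markers 2 passed as lower, Mbp (−0.28) and Mog (−0.26), with sums of 14290 to 16040 against 16210 to 18730. The part of these markers in the values was not tested.

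The remaining members showed no drug difference past the threshold. Hdac4 differed from vehicle by −0.23 to 0.14 over the 9 comparisons, and the leading Hdac5 probe by −0.24 to 0.24. Hdac6 ranged from −0.09 to 0.12, Hdac7 from −0.16 to 0.11 and Hdac10 from −0.06 to 0.14. Hdac9, near background, ranged from −0.10 to 0.03 where it was tested, and Mef2d in PFC was −0.17 under CI-994. None of these had an unadjusted p under 0.05. Of them the pools did not overlap vehicle for Hdac4 in HIP under SAHA (−0.23), Hdac9 in NAc under Cpd-60 and CI-994, and Mef2d in PFC under CI-994, a separation that 19.3%, 9.38%, 7.61% and 10.7% of all tested probes showed in these comparisons, in that order. In NAc the interval of the leading Hdac5 probe under SAHA ran from −0.19 to 0.66, so differences within it cannot be told from 0 with 3 pools a group. The Hdac5 probes disagreed here as well, at 0.24 for the leading probe, 0.04 for ILMN_2659160 and −0.11 for ILMN_1213290. In HIP under Cpd-60 the leading probe was −0.10 and ILMN_2659160 averaged 8.63 against 8.77 under vehicle. ILMN_1213290 averaged 7.53 there against 7.34 under vehicle. Within BeadChips signs could differ, as for Hdac4 in PFC under SAHA (−0.21 and 0.53) and the leading Hdac5 probe in NAc under CI-994 (0.46 and −0.19). For none of the 3 drugs did a member probe have an unadjusted p under 0.05 in the test of drug by region, among 19447 probes tested, of which 383, 729 and 253 did for Cpd-60, SAHA and CI-994 and 0 passed after adjustment.

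The genes around the HDAC and MEF2 proteins were read from 6 lists. Beside the counts below, 9.01% of all tested probes were higher and 10.3% lower in NAc than in PFC. In HIP 12.2% were higher and 12% lower than in PFC. Among class IIa kinases and 14-3-3 proteins, 16 of 19 genes were tested. In NAc 5 were higher and 4 lower than in PFC (list median 0.08, all probes −0.0043), and in HIP 7 were higher and 3 lower (0.31 against −0.03). Camk1, a calmodulin-dependent kinase, was lower in both NAc (−1.28, SE 0.10) and HIP (−1.38, SE 0.10). Camk4, the nuclear kinase of this family, read 9.88, 10.01 and 10.65 in vehicle NAc against 8.60, 8.93 and 9.19 in PFC (1.27, SE 0.14). Camk2a was lower in NAc (−1.16, SE 0.11) and Camk2g as well (−1.13, SE 0.12). The 14-3-3 genes Ywhaz (1.41), Ywhab (1.27) and Ywhaq (1.22) were higher in HIP than in PFC. All of these passed an adjusted p of 0.05. Some calls of these lists were lost under other processing, as counted further below.

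Of 12 MEF2 target genes 11 were tested. Bdnf, the neurotrophin gene, read 8.95, 8.93 and 8.96 in vehicle PFC, 7.05, 6.98 and 6.65 in NAc and 8.87, 8.94 and 8.81 in HIP. It was lower in NAc than in PFC (−2.05, SE 0.09, adjusted p = 6.59e-06), and HIP minus PFC was −0.07 (adjusted p = 0.602). In NAc 2 of 3 vehicle pools were detected. Arc, an activity-induced synaptic gene, was lower in NAc (−1.17) and HIP (−0.74), and the protocadherin gene Pcdh10 was lower in HIP (−1.29). Jun was higher in HIP (1.00). In all, 1 target was higher and 3 were lower in NAc than in PFC (list median −0.08), and 1 was higher and 3 lower in HIP (−0.07).

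Among 10 tested MEF2 activators and cofactors, 2 were higher and 2 lower in NAc than in PFC, and 1 was higher and 4 lower in HIP. The calcineurin subunit Ppp3ca was higher in NAc (0.61) and HIP (0.52) than in PFC, and Ppp3cc was lower in both (−0.69 and −0.41). Rcan2, which encodes a calcineurin regulator, was higher in NAc (0.69) and lower in HIP (−0.49). Of 5 tested NCoR complex genes, 1 was higher and 1 lower in NAc, and 0 were higher and 2 lower in HIP. Tbl1x was higher in NAc (0.33) and lower in HIP (−0.57), Tbl1xr1 was lower in NAc (−0.41) and Ncor1 lower in HIP (−0.79). Among 7 HDAC6 partners 0 were higher and 2 lower in NAc, and 2 were higher and 1 lower in HIP. Mapt, which encodes tau, was lower in NAc (−0.83) and HIP (−0.54), and Hsp90aa1 was higher in HIP (1.82). Of 4 tested polyamine genes 1, Odc1, which encodes ornithine decarboxylase, was higher in NAc (0.40) and HIP (0.48).

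**Figure D5:**
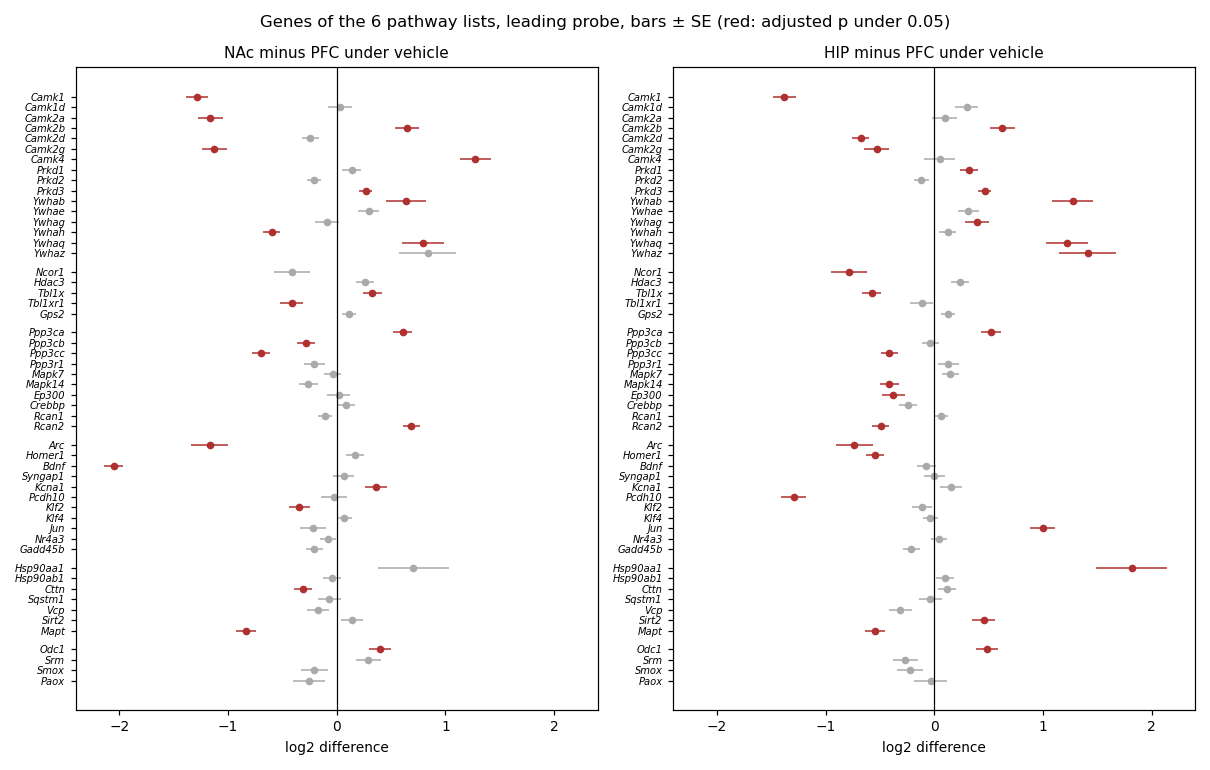
Log2 difference of the leading probe of each tested gene of 6 pathway lists, NAc minus PFC and HIP minus PFC, on vehicle arrays. Bars are SE and red marks an adjusted p under 0.05 over all 22606 tested probes. Bdnf stands lowest in NAc at −2.05 and Hsp90aa1 highest in HIP at 1.82.

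Under the drugs few genes of these lists passed the rule, and none passed after adjustment. In PFC under Cpd-60, Bdnf read 8.25, 8.35 and 8.56 against 8.95, 8.93 and 8.96 under vehicle, and was 0.56 log2 units lower (−0.56, SE 0.08, unadjusted p = 1.6e-05, adjusted p = 0.355). It was also lower under CI-994 (−0.27, SE 0.08, unadjusted p = 0.0069), with pools at 8.55, 8.70 and 8.78. All pools of both drugs were below all vehicle pools, a separation that 9.68% and 10.7% of tested probes showed in either direction. Tbl1xr1 was higher in PFC under Cpd-60 (0.34, unadjusted p = 0.00122).

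In NAc under Cpd-60, Klf2 (0.34, unadjusted p = 0.00354), the tubulin deacetylase gene Sirt2 (0.33, unadjusted p = 0.00706) and the polyamine oxidase gene Smox (0.44, unadjusted p = 0.0108) were higher. In HIP under Cpd-60, Camk1d read 8.08, 8.20 and 7.90 against 7.66, 7.64 and 7.61 (0.42, SE 0.08, unadjusted p = 0.000205, adjusted p = 0.598), and Kcna1 (0.36) and Tbl1x (0.28) were higher. In HIP under SAHA, Sirt2 (−0.43) and Ppp3cc (−0.32) were lower and Jun (0.27) was higher, and Jun was −0.26 under the median scaling. Under CI-994, Kcna1 was lower in NAc (−0.27) and Ywhaz in HIP (−0.29). No gene of the 6 lists passed under SAHA in PFC or NAc.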

How the data were processed

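The authors deposited raw intensity values and detection p-values from Illumina MouseWG-6 BeadChips, on a linear scale and without background subtraction or normalization. The study's own GeneSpring-normalized values were not used here. Intensities of all 36 arrays were quantile-normalized together, set to a floor of 1 and log2-transformed. Probes with a detection p of at most 0.2 in 3 of 3 arrays of a group entered the fits. Drug comparisons used limma 3.58.1 (R 4.3.3) on the 12 arrays of a region without covariates. Region comparisons used the 9 vehicle arrays with a fixed block for the pool, since its 3 regions share mice. The test of drug by region used all arrays with the pool as a random block (correlation −0.00497). Adjusted p-values are Benjamini-Hochberg values over all tested probes. The fits were tested on simulated data. Same-numbered pools of vehicle and drug are different animals, so the fits between treatments had no block. Their deviations correlated above 0.1 in all 3 pairs for Cpd-60 in PFC (0.16 to 0.553) and NAc (0.325 to 0.714), where same-numbered pools also share a BeadChip, and not in all pairs elsewhere (−0.424 to 0.603). A fit with the number as a block was therefore an alternative. Members, lists and tests were chosen with earlier results of these data known. Named list genes are those passing a call rule, at most 4 per list and comparison by size. The number of arrays limits the precision. Some marker genes are not reported here, and the marker sums leave them out.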

Additional observations from a re-analysis of the deposited data

How the results depend on the processing

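The leading Mef2c probe was called lower in NAc and HIP than in PFC under all alternatives run, including each vehicle pool left out. Counts of members called by leading probe moved elsewhere. For NAc minus PFC the count of 2 fell to 1 with median scaling, with no detection filter, with no replicate block, with the BeadChip as a random block and with all 36 arrays and the replicate block. For HIP minus PFC the count of 4 fell to 1 with median scaling. Hdac4 also lost its call there with the BeadChip as a random block and with all 36 arrays and the replicate block. For HIP minus NAc the count of 2 fell to 1 with neqc, with the mean of all probes of a gene and with all 36 arrays and the replicate block, and to 0 with median scaling. Leaving out a vehicle pool gave counts of 1 to 4, 1 to 5 and 0 to 3 in the same order. Hdac4 against PFC did not pass in either region with the BeadChip as a random block (adjusted p = 0.144 and 0.0824).

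For Cpd-60 in NAc the count of 1 fell to 0 with neqc, with median scaling, with 27 arrays and with the methods' one-way analysis of variance, and leaving out an array gave 0 to 1. For SAHA in HIP the count of 0 became 2 with neqc and 4 with median scaling, and 0 to 1 leaving out an array. CI-994 in NAc gave 0 to 1 and the other drug comparisons 0 when an array was left out. The F test in NAc (2 members) gave 1 with neqc, 0 with median scaling, 1 with vehicle, Cpd-60 and SAHA alone, and 1 to 2 leaving out an array. In HIP (0 members) it gave 2 with neqc, 2 with median scaling, 1 with no detection filter, 1 with 27 arrays and 0 to 1 leaving out an array, and in PFC 0 to 1. With median scaling the SAHA difference in HIP reversed for Mef2c (−0.52, unadjusted p = 0.048) and Jun (−0.26, unadjusted p = 0.132). The share of all probes that passed under these alternatives was not counted, and the cause of these moves was not tested. The replicate block between treatments changed no member's call. Signals near background limit Hdac9, Mef2d, Hdac6 and Hdac10.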

Other observations

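RefSeq lists the clone name D030072B18Rik as a synonym of Hdac9, and the array holds 2 probes under that name, which the symbol rule left out. ILMN_1242553 was detected on 33 of 36 arrays, and ILMN_2611773 on 0. Under vehicle ILMN_1242553 read 7.36, 7.35 and 7.52 in PFC, 6.90, 6.98 and 6.78 in NAc, and 6.85, 6.95 and 7.08 in HIP. It was lower than in PFC in NAc (−0.52, SE 0.09, limma adjusted p = 0.00518) and in HIP (−0.45, SE 0.09, adjusted p = 0.00888). No drug difference of this probe had an unadjusted p under 0.05. The lowest was in NAc under Cpd-60, with pools at 6.67, 6.73 and 6.78 (−0.16, unadjusted p = 0.0513). RefSeq also lists Hdac4 as an older name of Hdac5, and Hdac5 as an older name of Hdac6, so the array's symbols can follow older naming.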
